A study of Bos taurus with 12 samples.

Results

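The genes described here make nitric oxide and polyamines from the amino acid arginine or regulate that synthesis. The list held 10 genes: NOS2 (NCBI gene 282876), NOS3 (287024), ARG2 (518752), ODC1 (281365), AZIN1 (532835), OAZ1 (506973), SAT1 (508861), SRM (505916), SMS (615950) and AMD1 (280997). Members were all probe sets whose only gene symbol was on this list. That gave 15 probe sets for 9 of the 10 genes, out of 9155 genes and 24016 probe sets on the array. No probe set used here carried the symbol ARG2 alone, and that gene was not analysed here.

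The study profiled pools of whole cattle embryos on 12 Affymetrix arrays of bovine probe sets, with 3 separate biological pools in each of 4 groups. Day 7 in vivo pools held 25 blastocysts from superovulated animals, and Day 7 in vitro pools held 25 blastocysts made by in vitro fertilization. Day 13 in vivo and Day 13 in vitro pools held 5 conceptuses each. Those had been grown from Day 7 blastocysts of the same 2 origins after transfer of 10 blastocysts to each synchronized recipient heifer, so both Day 13 groups had spent the days after transfer in a uterus, and "in vitro" names only how their blastocysts were made. No strain, genotype or sex is given in the labels, and every pool mixes all embryonic cell types and several embryos.

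Arginine is used by nitric oxide synthases, which turn it into nitric oxide and citrulline, and by arginases, which turn it into ornithine and urea. Ornithine decarboxylase (ODC1) makes putrescine from ornithine, and spermidine synthase (SRM) and spermine synthase (SMS) extend it to spermidine and spermine with aminopropyl groups that depend on S-adenosylmethionine decarboxylase (AMD1). Antizyme (OAZ1) sends ODC1 to the proteasome, antizyme inhibitor (AZIN1) binds the antizyme and spares ODC1, and SAT1 acetylates spermidine and spermine so that they can be broken down or exported. In ruminants and pigs, arginine, nitric oxide and polyamines in the uterine lumen are known to support growth of the conceptus before implantation.

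All values are log2 probe set intensities as the authors normalized them. A value above 3.39, the 99th percentile of 48 control probe sets for which no matching RNA had been added, is called above background. Where a gene has several probe sets it is represented by the brightest, the probe set with the highest mean across all 12 arrays. Levels of different probe sets cannot be compared as amounts of RNA, so this rule is a convention. By this measure 8 of the 9 genes exceeded background on at least 1 array and NOS3 did not. Differences are given as log2 difference ± standard error, and a gene is called where limma's p, adjusted by Benjamini-Hochberg across the 24016 probe sets, is below 0.05.

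Arrays of a group resembled each other, with r of 0.963 to 0.991 over probe sets, and between 41.3% and 42.0% of probe sets exceeded background on each array. The poly-A spike-ins, added before labelling, averaged 11.01 ± 1.87 (SD, n = 3) in the Day 13 in vitro arrays, against 14.1 ± 0.64 to 14.7 ± 0.44 in the other groups. GAPDH has control probe sets at both transcript ends, and its 3' signal exceeded its 5' signal by 5.61 ± 0.04 on Day 7 in vivo arrays and by 3.69 ± 0.43 on Day 7 in vitro arrays. At Day 13 the excess was 4.01 ± 1.01 in vivo and 3.10 ± 0.92 in vitro. Embryonic identity was checked on marker lists. All 11 measured trophoblast markers of 12 exceeded background on at least 3 arrays, with a mean level per array of 7.00 to 7.999 at Day 7, 9.20 to 9.77 at Day 13 in vivo and 10.6 to 11.2 at Day 13 in vitro. Of markers of other cells, 6 of 7 for endometrial epithelium, 4 of 7 for stroma and vessel wall and 5 of 5 for cumulus and granulosa cells stayed at background on all 12 arrays. The mean of 5 red cell genes was 3.17 to 4.93 per array at Day 7 and 2.36 to 2.69 at Day 13, with HBA and SLC4A1 at background throughout. The trophoblast, red cell and stroma markers thus moved with the day. At Day 13 the trophoblast mean was also higher on every in vitro array than on every in vivo array. The median trophoblast difference there was 0.94, with 0 of 11 markers called in limma, against 1.64% of all genes. Hypoblast and epiblast markers differed between some of the groups, with the values given beside NOS2. The part of these markers in the differences of the members was not tested.

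Among the 9 measured genes NOS2 was the one called in a comparison by its representing probe set. NOS2, the inducible nitric oxide synthase, works without a calcium signal and is best known from activated macrophages. In Day 7 in vitro blastocysts its level was 7.89, 8.82 and 7.62 on replicates 1, 2 and 3. In Day 7 in vivo blastocysts it was 5.02, 5.58 and 5.07. Every in vitro blastocyst array lay above every in vivo array. At Day 13 the levels were 5.02, 4.32 and 5.03 in conceptuses of in vivo origin. They were 3.63, 3.63 and 4.33 in those of in vitro origin, close above background, and the first 2 of these arrays hold the same value to the last digit deposited. In bulk RNA of this kind, fewer cells of a type and less RNA per cell cannot be told apart.

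**Figure D1:**
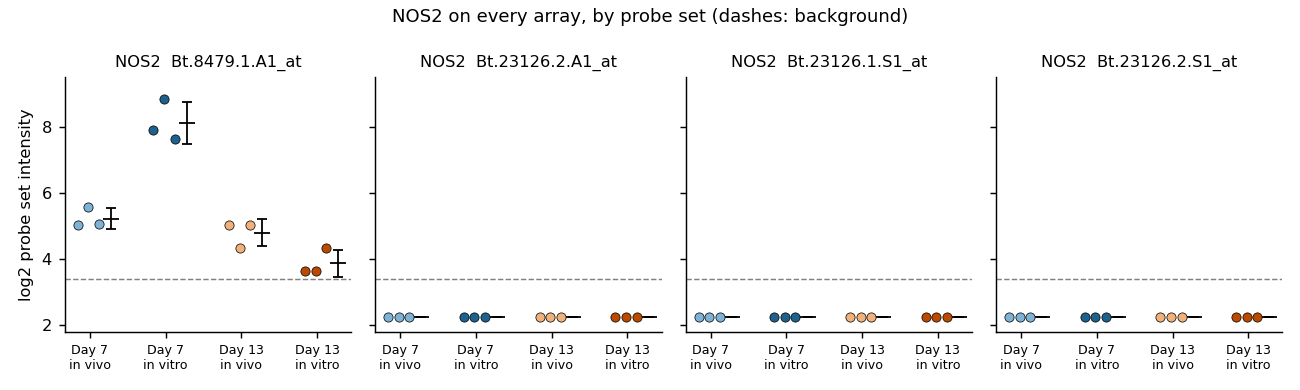
NOS2 by probe set: log2 probe set intensity (vertical axis) of each array, by group, for all 4 probe sets annotated to NOS2. Points are arrays, horizontal marks with bars are means ± SD (n = 3) and the dashed line is the background of 3.39; the brightest probe set is highest in the Day 7 in vitro arrays (7.62 to 8.82), and the other 3 stay at or near the common floor of 2.23.

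From Day 7 to Day 13 NOS2 fell in embryos made in vitro by 4.25 ± 0.36, a 19.0-fold fall (adjusted p = 0.000352 in limma). The groups did not overlap. It was the only one of the 9 genes called in this comparison, in which 10.8% of all genes were called. In embryos made in vivo the same comparison gave -0.43 ± 0.36 (adjusted p = 0.639), the groups overlapped, and 0 of the 9 genes were called in limma, against 5.49% of all genes. At an unadjusted p under 0.05 there were 2 of 9, ODC1 and SAT1, and the unadjusted p of NOS2 was 0.268. The share of all genes at that threshold was not counted, and the percentages given are for adjusted p. The difference between these day effects was itself called at -3.82 ± 0.51 (adjusted p = 0.0237). NOS2 was again the 1 gene of 9, where 0.513% of all genes were called.

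Between the origins at Day 7, NOS2 was 7.41-fold higher in vitro, a log2 difference of 2.89 ± 0.36 (adjusted p = 0.0276). It was the 1 gene of 9 called, where 0.295% of all genes were. At Day 13 the difference was -0.93 ± 0.36 (adjusted p = 0.251), and 0 of the 9 genes were called in limma, against 1.64% of all genes. An unadjusted p under 0.05 was reached by 3 of 9 (NOS2, ODC1 and SMS), a threshold at which the share of all genes was not counted. The order of group means was therefore Day 7 in vitro (8.11 ± 0.63, SD, n = 3), Day 7 in vivo (5.22 ± 0.31), Day 13 in vivo (4.79 ± 0.41) and Day 13 in vitro (3.87 ± 0.40). The first step passed the test. The step between the in vivo days and the step between the Day 13 groups did not.

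The fall of NOS2 in embryos made in vitro was called in all 23 alternative analyses, with differences of -4.49 to -3.78 and adjusted p up to 0.0375. Some of these settings, such as leaving out an in vivo array, cannot move that difference and change only its error or its adjustment. Averaging a gene's probe sets above background repeats the main fit, because only 1 NOS2 probe set exceeds background. The 2 other NOS2 calls were less firm. The blastocyst difference was no longer called when 1 of 7 arrays was left out: in vivo replicate 1 (adjusted p = 0.0613) or 3 (0.0557) of Day 7, in vitro replicate 1 (0.0776) of Day 7, in vivo replicate 1 (0.0513) or 3 (0.0679) of Day 13, and in vitro replicate 1 (0.0655) or 2 (0.0693) of Day 13. For the difference between day effects these were in vivo replicate 1 (0.0609) or 3 (0.0547) and in vitro replicate 1 (0.0606) of Day 7, and in vitro replicate 1 (0.07) or 2 (0.0657) of Day 13, the last pair being the arrays with the lowest spike-in values. With arrays centred on ribosomal protein genes the blastocyst difference was 2.35 (adjusted p = 0.0892) and the difference between day effects -3.16 (adjusted p = 0.065). A fit of the 6 Day 7 arrays alone gave the blastocyst difference an adjusted p of 0.298. In all, the blastocyst call was lost in 13 of 23 alternatives and that of the difference between day effects in 10 of 22.

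The control measures that moved with these groups gave the following values. With the GAPDH 3' minus 5' difference as a covariate, chosen after seeing the data, the NOS2 blastocyst difference was 3.88 (adjusted p = 0.02), and the in vivo day difference changed sign to 0.39 (adjusted p = 0.741). With the poly-A spike-in mean as a covariate, the blastocyst difference was 2.92 (adjusted p = 0.0735), the day difference in vitro -4.09 (adjusted p = 0.0375) and the difference between day effects -3.67 (adjusted p = 0.232). Markers of the inner cell lineages differed in some of these comparisons and not in others. The mean of 7 measured hypoblast markers of 8 was 8.10 to 8.63 per array in Day 7 in vivo, 8.88 to 9.11 in Day 7 in vitro, 10.1 to 10.3 in Day 13 in vivo and 8.68 to 9.35 in Day 13 in vitro, so that the blastocyst groups did not overlap. Of these 7, 4 were called higher between days in vivo, 1 lower between days in vitro and 1 higher in vitro at Day 7, and the median day difference was 2.19 in vivo and 0.01 in vitro. The mean of the epiblast markers POU5F1 and SOX2, the 2 measured of 5, was 5.56 to 6.92 in Day 7 in vivo, 6.14 to 7.93 in Day 7 in vitro, 4.54 to 5.89 in Day 13 in vivo and 3.44 to 3.83 in Day 13 in vitro. Their median day difference was -1.25 in vivo and -3.30 in vitro, where POU5F1 was called. Of these 2 markers 1 exceeded background on at least 3 arrays, and 1 did so on any array of each Day 13 group. Their mean thus includes a gene at background on most arrays. Macrophage markers were low throughout. PTPRC, CD14, CD68, ITGAM, AIF1 and TYROBP, 6 of the 7 measured, were at background on all 12 arrays, and the mean of the 7 lay at 2.25 to 2.26 on the Day 7 in vitro arrays where NOS2 was highest.

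The NOS2 values rest on 1 of 4 probe sets, the brightest. The other 3 stayed at background on all 12 arrays, so that none of them repeated the pattern. Which part of the transcript each probe set covers was not analysed here.

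Of the genes whose level followed NOS2 over the 12 arrays, BNIP3, a mitochondrial receptor for mitophagy, had the highest correlation (Pearson r = 0.983), with a mean of 11.5 in Day 7 in vitro and 9.52 to 10.02 in the other groups. MAEL, a germline gene of transposon silencing, followed at r = 0.959, the kinase gene MARK1 at 0.955 and the neutral amino acid transporter gene SLC1A4 at 0.946. MAEL had means of 3.402, 2.46 and 2.46 and SLC1A4 of 3.07, 3.12 and 2.92 in Day 7 in vivo, Day 13 in vivo and Day 13 in vitro, close to or below background, so that their correlations rest largely on Day 7 in vitro. These are descriptions over 5756 genes searched. The 12 arrays fall into 4 groups, and the correlations contain the group differences.

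NOS3, the endothelial synthase, was at background on all 12 arrays, with values of 2.23 to 2.27. No probe set used here carried NOS1 alone. Of 16 further genes of nitric oxide synthesis, its cofactor, its inhibitors and its receptor, 12 were measured and 10 exceeded background on at least 3 arrays. GUCY1A1 and GUCY1B1, the subunits of the nitric oxide receptor guanylate cyclase, were the 2 at background on all arrays. GCH1, which starts synthesis of the cofactor tetrahydrobiopterin, lay near background with group means of 3.17 to 4.39, while PTS and QDPR, later enzymes of that cofactor's synthesis and recycling, had group means of 10.7 to 11.1 and 11.5 to 11.7. Neither they nor SPR were called in any of the 5 comparisons.

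The 1 called gene of that list was NOSTRIN, which encodes an adaptor that binds endothelial nitric oxide synthase and directs its trafficking. Its values were 5.77, 6.54 and 6.18 in Day 13 in vivo conceptuses. All 6 Day 7 arrays lay at background, between 2.23 and 2.48. The Day 13 in vitro arrays read 2.24, 2.46 and 4.05, the first 2 of them at background. NOSTRIN was therefore at least 6.83-fold higher at Day 13 than at Day 7 in vivo (adjusted p = 0.00227 in limma). At Day 13 it was lower in vitro than in vivo, with a fitted difference of -3.25 ± 0.43 (adjusted p = 0.0125) that takes the values of 2 arrays at background as they stand. It was -2.11 (adjusted p = 0.0107) without those arrays, Day 13 in vitro replicates 1 and 2. The call was lost with the poly-A covariate (-1.73, adjusted p = 0.347), with the GAPDH covariate (-3.01, adjusted p = 0.05) and in a fit of the 6 Day 13 arrays alone (adjusted p = 0.299). The difference between the day effects was not called (adjusted p = 0.0824). Over this list 1 gene was higher and 0 lower of 12 in the in vivo day comparison, with a median of 0.06, beside 2.7% of all genes higher, 2.8% lower and a median of 0.

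On the arginine side, 19 of 25 genes of supply and use were measured, and 9 of them were at background on all 12 arrays. Among these 9 were ARG1, the liver-type arginase, OTC and CPS1 of the urea cycle, ASS1, which makes argininosuccinate on the way back from citrulline to arginine, and the cationic amino acid carrier gene SLC7A1. OAT, which connects ornithine with glutamate semialdehyde and proline, had group means of 12.7 to 13.3 and was not called in any comparison. ASL, which releases arginine from argininosuccinate, had means of 8.73 and 9.27 at Day 7 and of 6.79 and 6.48 at Day 13, in vivo and in vitro, and was not called (adjusted p = 0.48 and 0.158).

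ALDH18A1, the enzyme that makes the glutamate semialdehyde from which ornithine and proline are built, was the 1 called gene of the 19 in each day comparison, where 5.49% of all genes were called in vivo and 10.8% in vitro. At Day 7 it read 6.30, 7.03 and 7.36 in vivo and 7.98, 7.54 and 7.58 in vitro. At Day 13 it read 9.81, 10.25 and 10.03 in vivo and 9.03, 8.89 and 9.67 in vitro. Every Day 13 array lay above every Day 7 array. It rose by 3.14 ± 0.30 in vivo (adjusted p = 0.000944 in limma) and by 1.49 ± 0.30 in vitro (adjusted p = 0.0209). The in vitro call did not hold when in vitro replicate 2 (adjusted p = 0.0626) or 3 (0.0787) of Day 7 or in vitro replicate 1 (0.0586) of Day 13 was left out, nor with the poly-A covariate (0.105), the trended robust variance (0.0685), the compared arrays alone (0.0795) or without Day 13 in vitro replicates 1 and 2 together (0.0627). These are the 7 of 23 alternatives in which it was lost. The medians of the list were 0.03 in vivo and 0 in vitro, beside 0 for all genes.

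Polyamine synthesis begins with ODC1, which ranged from 13.75 to 15.09 over the 12 arrays. At Day 7 its values were 14.45, 14.73 and 14.72 in vivo and 15.09, 14.93 and 14.98 in vitro. At Day 13 they were 13.75, 14.35 and 14.18 in vivo and 15.03, 15.02 and 14.34 in vitro. In vivo, all Day 13 arrays lay below all Day 7 arrays. The difference of -0.54 ± 0.21 was not called (adjusted p = 0.287 in limma), but it was -0.78 (adjusted p = 0.0184) after quantile normalization, -1.05 (0.0275) with ribosomal centring and -1.02 (0.0414) with the GAPDH covariate. At Day 13 the in vitro group differed by 0.70 ± 0.21 (adjusted p = 0.166), and by 0.93 (adjusted p = 0.0162) without Day 13 in vitro replicate 3. It was 0.10 (adjusted p = 1) with the poly-A covariate and 0.24 (adjusted p = 1) without Day 13 in vitro replicates 1 and 2 together. A second ODC1 probe set was at background on all 12 arrays.

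The regulators of ODC1 were not called in any comparison. OAZ1 ranged from 11.89 to 13.17 over the 12 arrays, with group means of 12.4 to 12.7, and its smallest adjusted p was 0.934. AZIN1 ranged from 10.51 to 12.72. Its Day 13 values were 11.87, 10.51 and 11.70 in vivo and 12.72, 12.65 and 11.72 in vitro, overlapping, with a difference of 1.004 ± 0.47 (adjusted p = 0.349). That difference was -0.24 with the poly-A covariate.

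**Figure D2:**
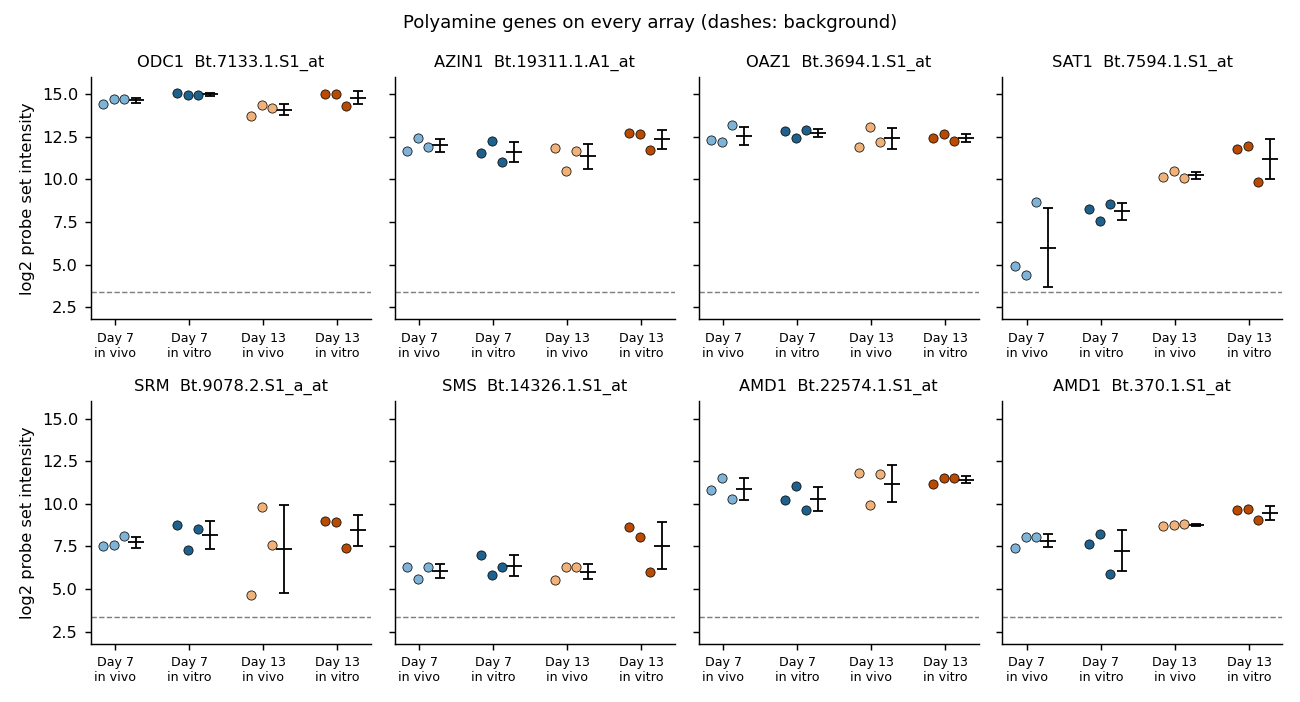
Polyamine genes by array: log2 probe set intensity (vertical axis) of each array, by group, for the probe sets of the polyamine members that exceeded background. Points are arrays, horizontal marks with bars are means ± SD (n = 3) and the dashed line is the background of 3.39; SAT1 reads 4.40 to 8.67 on the Day 7 arrays and 9.87 to 11.95 on the Day 13 arrays.

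AMD1, which supplies the aminopropyl donor, was measured by 2 probe sets that differed in call. The brighter gave 10.25, 11.04 and 9.63 at Day 7 and 11.17, 11.54 and 11.54 at Day 13 in vitro, a difference of 1.11 ± 0.58 (adjusted p = 0.382 in limma). In vivo the brighter gave 10.81, 11.53 and 10.26 at Day 7 and 11.83, 9.92 and 11.77 at Day 13. Those groups overlapped, and the difference of 0.31 ± 0.58 was not called. The other gave 7.64, 8.25 and 5.91 at Day 7 and 9.65, 9.72 and 9.02 at Day 13 in vitro. Its in vivo arrays gave 7.39, 8.09 and 8.07 at Day 7 and 8.72, 8.77 and 8.84 at Day 13. On this probe set every Day 13 array lay above every Day 7 array.

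In vitro that difference was 2.202 ± 0.53 (adjusted p = 0.043), where 7.51% of all probe sets were called. The call was lost when any 1 array was left out, with adjusted p of 0.0597 to 0.146, except for in vitro replicates 2 and 3 of Day 7 and in vitro replicate 3 of Day 13. It was also lost with the poly-A covariate, with a difference of 1.39 (adjusted p = 1), without Day 13 in vitro replicates 1 and 2 together (1.76, adjusted p = 0.576), with the GAPDH covariate (0.0756), the trended robust variance (0.0741) and the compared arrays alone (0.244). In all it was lost in 15 of 23 alternatives.

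The aminopropyl transferases were not called. SRM, which makes spermidine, ranged from 4.64 to 9.80, and both of these extremes were Day 13 in vivo arrays. Its smallest adjusted p was 0.776. SMS, which makes spermine, read 8.62, 8.06 and 5.99 in Day 13 in vitro, against 5.51 to 7.03 on the other 9 arrays. Replicates 1 and 2 of Day 13 in vitro were thus its highest arrays, and they are also those with the lowest spike-in values. The difference from Day 7 in vitro was 1.19 ± 0.65 (adjusted p = 0.416) and that from Day 13 in vivo 1.53 ± 0.65 (adjusted p = 0.293). Without Day 13 in vitro replicate 3 they were 1.97 (adjusted p = 0.0238) and 2.31 (0.0169). With the poly-A covariate they were -0.34 and -0.19. The part of the spike-in level in the SMS difference was not tested further. A second SMS probe set was at background throughout.

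SAT1, the acetyltransferase of polyamine breakdown and export, had the widest difference between days among the polyamine members. At Day 7 it read 4.95, 4.40 and 8.67 in vivo and 8.28, 7.58 and 8.55 in vitro. At Day 13 it read 10.16, 10.49 and 10.07 in vivo and 11.80, 11.95 and 9.87 in vitro. Every Day 13 array lay above every Day 7 array, and Day 7 in vivo replicate 3 lay with the in vitro blastocysts rather than with its own group. The differences were 4.23 ± 1.06 in vivo (adjusted p = 0.076 in limma) and 3.07 ± 1.06 in vitro (adjusted p = 0.144), and neither was called.

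Both SAT1 differences passed without Day 7 in vivo replicate 3, at 5.56 (adjusted p = 0.00421) and 3.07 (0.0201). They also passed with ribosomal centring, at 3.73 (0.019) and 3.22 (0.0327), and when dim probe sets were left out of the test (0.0144 and 0.0365). With the GAPDH covariate they were 3.05 (adjusted p = 0.484) and 2.64 (0.228). The in vitro difference was 2.16 (adjusted p = 1) with the poly-A covariate and 1.74 (adjusted p = 1) without Day 13 in vitro replicates 1 and 2 together. The genes most like SAT1 over the 12 arrays were CNN3 (Pearson r = 0.969), the heat shock gene DNAJB1 (0.963), the trophoblast keratin gene KRT19 (0.954) and the aldose reductase gene AKR1B1 (0.951). For ODC1 they were WDR33 (0.973), the mismatch repair gene MSH6 (0.950), ADIPOR2 (0.942) and the histone demethylase gene KDM1A (0.935).

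**Figure D3:**
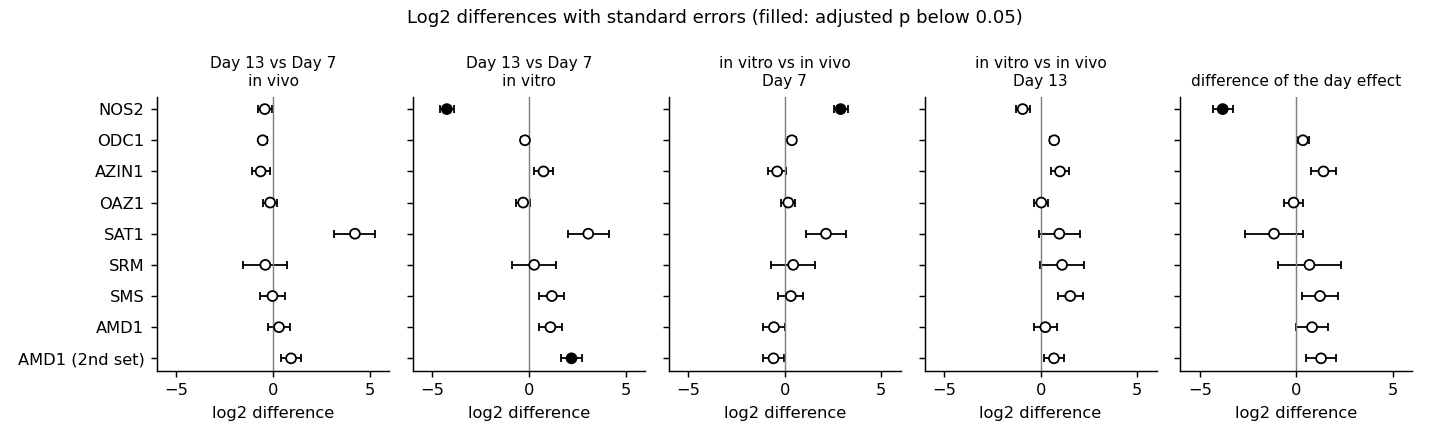
Differences of the members: log2 difference with standard error (horizontal axis) for probe sets of the members in each comparison. NOS2 is called in the in vitro day comparison (-4.25), at Day 7 (2.89) and in the difference between day effects (-3.82). No other gene is called by its representing probe set. The dimmer AMD1 probe set, which does not represent its gene, is called in the in vitro day comparison.

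Over the 9 genes the median differences were -0.15 between days in vivo, 0.27 between days in vitro, 0.31 between origins at Day 7, 0.70 at Day 13 and 0.33 for the difference between day effects, beside 0 for all genes in each. The median of all genes includes many at background, since 41.3% to 42.0% of probe sets exceeded it on each array. Of the 9 members, 8 exceeded background on at least 3 arrays, so these medians are of unlike sets. A shift of the members as a set was not tested. Of 20 partners of polyamine synthesis, methionine salvage and hypusine formation, 13 were measured. In vivo 1 was higher and 0 lower, against 2.7% of all genes higher, and in vitro 2 were higher and 0 lower, against 5% of all genes higher. The list medians were 0.35 and 0.18.

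The gene called in both was MYC, a transcription factor known to activate ODC1. It read 3.44, 2.65 and 3.34 in Day 7 in vivo and was at background on all 3 Day 7 in vitro arrays. At Day 13 it read 5.18, 5.37 and 5.73 in vivo and 6.90, 7.38 and 6.45 in vitro. Every Day 13 array lay above every Day 7 array. MYC rose in vivo, with a fitted difference of 2.28 ± 0.28 (adjusted p = 0.00295 in limma) against a Day 7 group in which 1 of 3 arrays exceeded background. It was at least 11.4-fold higher at Day 13 in vitro (adjusted p = 7.67e-05). The in vivo call was lost in a fit of those 6 arrays alone (0.0676). Its difference between origins at Day 13, 1.48 ± 0.28 (adjusted p = 0.0481), lost its call in 17 of 23 alternatives, and among the arrays left out 1 at a time it was kept only without Day 7 in vivo replicate 2 or Day 13 in vitro replicate 3 (adjusted p up to 0.159).

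ENOPH1, an enzyme of the methionine salvage pathway that recycles the by-product of spermidine and spermine synthesis, read 9.03, 9.28 and 8.38 at Day 7 and 11.10, 11.01 and 11.05 at Day 13 in vitro. In vivo it read 9.49, 9.79 and 9.11 at Day 7 and 11.18, 10.23 and 10.92 at Day 13. In neither origin did the Day 7 and Day 13 groups overlap. The in vivo difference of 1.31 ± 0.30 was not called (adjusted p = 0.0572 in limma), nor was the difference between day effects (0.562). In vitro it rose by 2.16 ± 0.30 (adjusted p = 0.00442). The call was lost with the poly-A covariate (adjusted p = 0.179) and without Day 13 in vitro replicates 1 and 2 together (0.0856). Deoxyhypusine synthase (DHPS), which uses spermidine to modify a translation factor, had group means of 6.37 to 7.10 and was not called. DOHH, which completes that modification, was at background on all arrays.

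**Figure D4:**
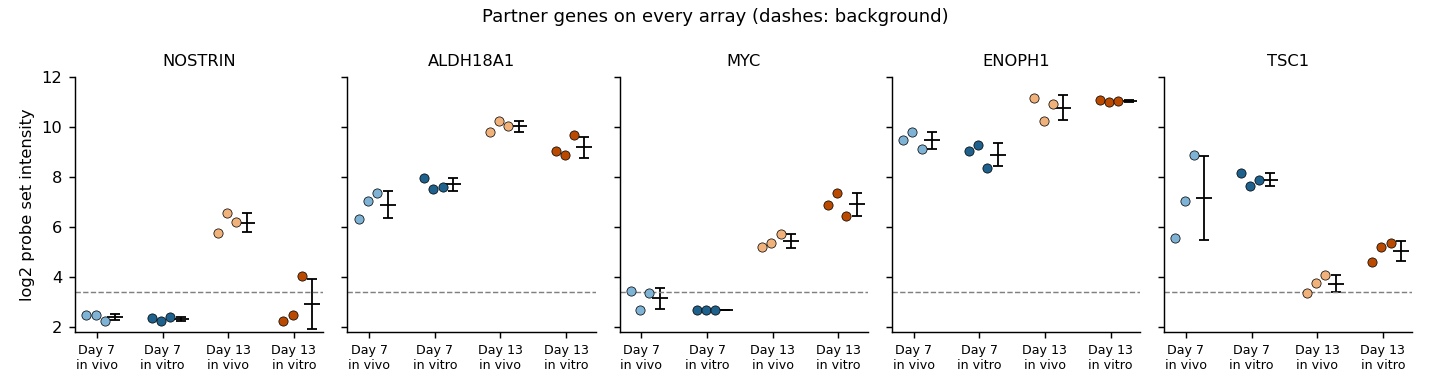
The 5 called partner genes: log2 probe set intensity (vertical axis) of each array, by group. Points are arrays, horizontal marks with bars are means ± SD (n = 3) and the dashed line is the background of 3.39; NOSTRIN exceeds background on all 3 Day 13 in vivo arrays and on 1 other array, and MYC is higher on every Day 13 array than on any Day 7 array.

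Of 16 genes of arginine sensing and the growth kinase complex mTORC1, 11 were measured. In each day comparison 0 were higher and 1 was lower, against 2.8% of all genes lower in vivo and 5.77% in vitro. The list medians were 0.03 and 0. The gene was TSC1, a subunit of the complex that restrains mTORC1. At Day 7 it read 5.55, 7.02 and 8.89 in vivo and 8.17, 7.63 and 7.86 in vitro. At Day 13 it read 3.36, 3.76 and 4.06 in vivo and 4.59, 5.20 and 5.36 in vitro. Every Day 13 array lay below every Day 7 array. It fell by 3.43 ± 0.71 in vivo (adjusted p = 0.0355 in limma) and by 2.84 ± 0.71 in vitro (adjusted p = 0.0488). Each call was lost in 16 of 23 alternatives, and among the arrays left out 1 at a time both were kept only without Day 7 in vivo replicate 1 or 3 (adjusted p up to 0.105 and 0.172). RPS6, the ribosomal protein phosphorylated downstream of mTORC1, had group means of 14.2 to 14.9 and was not called. The arginine sensor gene CASTOR1 was at background on all arrays.

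Between origins, NOSTRIN and MYC at Day 13 were the 2 calls among the 55 partner genes measured, where 1.64% of all genes were called at Day 13. At Day 7 limma called 0 of the 12 nitric oxide genes, 0 of the 19 arginine genes, 0 of the 13 polyamine partners and 0 of the 11 sensing genes, where 0.295% of all genes were called. At an unadjusted p under 0.05 the numbers at Day 7 were 1 (GUCY1A1, at background), 1 (ALDH18A1), 0 and 0. For the difference between day effects limma also called 0 in each list, where 0.513% of all genes were called, with 1 (NOSTRIN), 3 (ALDH18A1, GAMT and ALDH4A1), 1 (MYC) and 2 (SESN2 and RPS6KB1) at an unadjusted p under 0.05. In the in vitro day comparison 0 of the 12 nitric oxide genes were called in limma, against 10.8% of all genes, with 2 (NOSIP and SPR) at an unadjusted p under 0.05. These percentages are for adjusted p, and the share of all genes at an unadjusted p under 0.05 was not counted.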

How the data were processed

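Gene expression was measured on 12 Affymetrix bovine arrays, 3 pools per group, from 75 ng of total RNA labelled after 2 amplification cycles, per the labels' protocols. The deposited values are log2 intensities normalized by the authors. RMA, GCRMA and limma appear, with no version, in the submitters' processing notes, and which of them made the values is not given in the sources used here. Of the deposited probe sets, 112 controls were left out and 24016 kept. Of these 13292 have 1 gene symbol in the platform annotation and 10724 have none or several. ARG2 was not analysed here. The number of arrays limits the precision.

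All probe sets were fitted together, with a mean for each of the 4 groups, by limma 3.58.1 in R 4.3.3 (8 residual degrees of freedom), and p-values were adjusted by Benjamini-Hochberg over 24016 probe sets in each of 5 comparisons. The procedure was tested on simulated data with normal noise and with changes placed only in probe sets of middle level. That simulation does not cover genes near the floor or exact values shared by several arrays. Where a group lay wholly at background, a fold is a lower bound taken against the background level. Same-numbered arrays did not deviate together, so the replicate numbers were not taken to pair them.

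The members and lists were chosen with earlier results of these data known. Named were all members, up to 5 called genes of each partner list by smallest adjusted p, and the 4 genes most like NOS2, ODC1 and SAT1. Alternatives were 3 other normalizations, a filter on dim probe sets, another variance model, another summary of a gene's probe sets, a replicate block, a fit of the compared arrays alone, a spike-in covariate and leaving out each array. Leaving out the 2 arrays with the lowest spike-in values and a GAPDH covariate were added after seeing the data.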

Additional observations from a re-analysis of the deposited data

Results flagged for a closer look

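The change of NOS2 between Day 7 and Day 13 differed between embryos made in vitro and in vivo by -3.82 on the log2 scale (adjusted p = 0.0237 in limma, 3 arrays in each of 4 groups). It stands here because the same contrast was tested in both origins and the difference itself passed the test. Its values under the alternatives ran from -4.34 to -3.16, with adjusted p of 0.00518 to 0.232. Groups of 3 arrays were not searched for outlying arrays.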

How the results depend on the processing

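Of 551 single-gene values under the alternatives, 433 kept their direction and their side of the threshold, 100 lost a call, 12 gained one and 6 changed sign. The sign changes were NOS2 between days in vivo (0.39 with the GAPDH covariate), SMS between days in vitro (-0.34 with the poly-A covariate, -0.38 without Day 13 in vitro replicates 1 and 2 together), SMS between origins at Day 13 (-0.19 and -0.030 in the same settings) and AZIN1 there (-0.24 with the poly-A covariate). None of these was called. The number of members called between days in vivo, 0, became 1 with quantile normalization (ODC1), 2 with ribosomal centring (ODC1, SAT1), 1 without dim probe sets (SAT1) and 1 with the GAPDH covariate (ODC1), and was 0 to 1 with an array left out. In vitro, 1 became 2 with ribosomal centring and without dim probe sets, and was 1 to 2 with an array left out. At Day 7, 1 became 0 with ribosomal centring, the trended robust variance, the replicate block, the 6 arrays alone, the poly-A covariate and without Day 13 in vitro replicates 1 and 2, and was 0 to 1 with an array left out. At Day 13, 0 became 0 to 2 with an array left out. For the difference between day effects, 1 became 0 with ribosomal centring, the trended robust variance, the replicate block, the poly-A covariate and without both arrays, and was 0 to 1 with an array left out. The filter tests fewer probe sets, and some settings use fewer arrays. What made these counts change was not tested in any setting. Ribosomal centring moved the median of all probe sets by -0.50, 0.15, -0.54, 0.11 and 0.65 in the 5 comparisons, in the order given here.

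The replicate numbers do not pair the arrays: of 18 same-numbered pairs 3 correlated above 0.1 (median -0.06), and 0 of 12 arrays correlated best with its own number throughout. With that number as a block, NOS2 at Day 7 had an adjusted p of 0.154 and the difference between day effects 0.107, and the dimmer AMD1 probe set between days in vitro 0.0664. Values near the floor of 2.23 carry no order, which limits NOS3, 3 NOS2 probe sets, second probe sets of ODC1 and SMS, and NOSTRIN and MYC where arrays lie at background.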

Other observations

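RPS6KB1, the S6 kinase downstream of mTORC1, was singled out after its values were seen. Its dimmer probe set was above background on all 3 Day 13 in vitro arrays (mean 5.85) and on 0 of the other 9. It was at least 5.50-fold higher at Day 13 than at Day 7 in vitro (adjusted p = 0.0189 in limma), where 7.51% of all probe sets were called. Between origins at Day 13 it was not called (adjusted p = 0.0721), nor was the difference between day effects (0.279). The alternatives, with the spike-in covariate among them, were not run for this probe set. The brighter RPS6KB1 probe set differed by 2.25 ± 0.63 between days in vitro and was not called (adjusted p = 0.0739).

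SMS held the same value, 6.28, to the last digit on 5 arrays of 3 groups (Day 7 in vivo replicates 1 and 3, Day 7 in vitro replicate 3, Day 13 in vivo replicates 2 and 3). Of 8598 probe sets above background on all 12 arrays, 2562 (29.8%) held 1 exact value on at least 2 arrays and 659 (7.66%) on at least 5. The SD of a group that holds such values is smaller for it, and the step of processing that gave them was not tested.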
